A study of Homo sapiens with 10 samples.

Results

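Transcript levels of 10 genes of insulin, insulin-like growth factor (IGF), ERBB and FOXO signalling were examined in QGP-1, a cell line established from a human pancreatic neuroendocrine tumor: IGF2, IGF1R, INSR, IGF2R, IRS1, IRS2, ERBB2, ERBB3, FOXO1 and FOXO3. The genes were taken by symbol from 35606 gene IDs. They had been selected on measured values, the fold changes of the same 3 comparisons and the control levels of IGF2, so these are described here and no p-value is given for the 10 genes. Of 11 gene IDs carrying these symbols, the second IGF2 ID was at 0 in all 10 samples and the first was used. RNA-seq was available for 5 groups of 2 samples. In the CRISPR interference (CRISPRi) experiment, cells carried a nuclease-dead Cas9 fused to the KRAB repressor together with either the control guide sgNC (genotype WT in the labels) or the single guide sgPIKFYVE-1 (PIKFYVE knockdown), both delivered by lentivirus and selected with puromycin. In the drug experiment, WT cells received DMSO, 1 µM Apilimod, an inhibitor of the lipid kinase PIKfyve, or 100 nM Torin-1, an inhibitor of the mTOR kinase. The labels give 24 h for both drugs, and the text of the study gives a shorter exposure for this RNA-seq.

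Insulin and the IGFs bind the receptor tyrosine kinases INSR and IGF1R, which phosphorylate the adapters IRS1 and IRS2 and thereby recruit PI3K and activate AKT. AKT phosphorylates the FOXO transcription factors and keeps them out of the nucleus, and among the genes FOXO factors are known to activate are receptors and adapters of the same route, such as INSR, IRS2 and ERBB3. The mTOR complexes act on both ends of this route, since mTORC1 restrains the IRS adapters and mTORC2 phosphorylates AKT. IGF2 is an imprinted growth factor gene that is often highly expressed in insulinomas, and inhibitors of mTOR are used to treat pancreatic neuroendocrine tumors.

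Values are a signal on the scale of CPM, which sets the reads of a gene against all reads of its sample, as scaled by the authors separately in the knockdown table and the drug table. The steps between low values put the depth of the samples at 9.30 to 13.6 M reads, at which 3 reads equal 0.227 to 0.329 CPM (counting error alone). PIKFYVE itself had 101 and 97.5 CPM with sgNC and 10.9 and 12.5 CPM with sgPIKFYVE-1, a log2 fold change of -2.98 ± 0.098 (SE, limma adjusted p = 1.22e-14). Under the drugs it did not pass the threshold, with log2 fold changes of 0.22 with Apilimod (limma adjusted p = 0.0604) and 0.12 with Torin-1 (limma adjusted p = 0.186). All 8 neuroendocrine and epithelial markers (CHGA, CHGB, SYP, ENO2, INSM1, KRT8, KRT18 and EPCAM) had a mean of at least 1 CPM and together summed to between 4169 and 6043 CPM per sample. Of 8 markers of fibroblasts, endothelium and immune cells, 2 (COL1A1 and PECAM1) had such a mean, CD3E was at 0 in all samples, and the sum lay between 4.26 and 15.1 CPM.

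Each treated group was compared with the control of its own table, to ask which of these genes differed after loss of PIKFYVE, after inhibition of its product and after inhibition of mTOR. Fold changes are on the log2(CPM + 1) scale, with the standard error (SE) of limma's fit over all genes. A gene passed the threshold at a Benjamini-Hochberg adjusted p under 0.05 over all genes tested. With sgPIKFYVE-1, 5 of the 10 genes passed (1 higher, 4 lower), where 42.5% of 13591 genes tested did (21.6% higher, 20.9% lower). With Apilimod 1 of 10 passed, where 8.54% of 13520 did (5.75% higher, 2.79% lower), and with Torin-1 8 of 10 passed (7 higher, 1 lower), where 38.5% did (16.6% higher, 21.8% lower). Because the 10 genes had been selected on fold changes of these comparisons, their counts and medians are a description and no test of the group. The median log2 fold change of the 10 genes was -0.17 with sgPIKFYVE-1, -0.02 with Apilimod and 0.60 with Torin-1, beside medians over all genes of -0.004, -0.006 and -0.01. The treated and control samples did not overlap for 9, 5 and 10 of the 10 genes, in that order, where this held for 70.6%, 50.7% and 69.3% of all genes tested. All 10 genes passed the filter on low values in both tables. Both drugs were compared with the same DMSO samples.

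**Figure D1:**
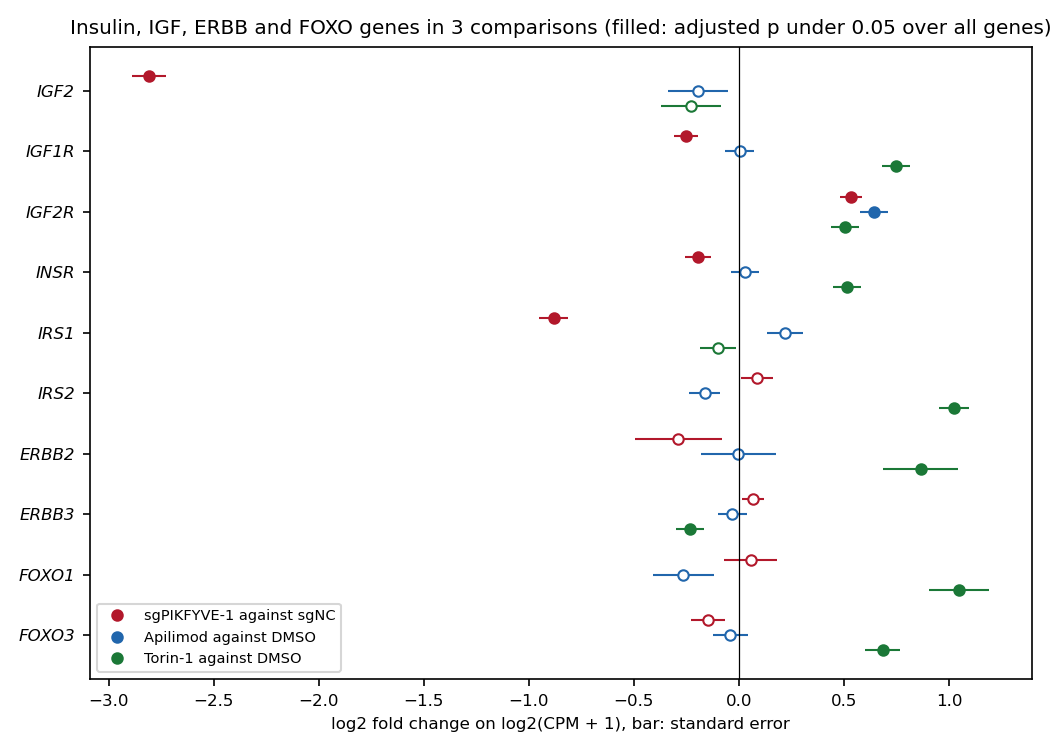
Log2 fold change on the log2(CPM + 1) scale (horizontal) of the 10 genes (rows) for sgPIKFYVE-1 against sgNC, Apilimod against DMSO and Torin-1 against DMSO, with bars of 1 SE from limma and filled points for genes past the threshold. IGF2 stands at -2.81 with sgPIKFYVE-1, IGF2R lies above 0 in all 3 comparisons, and IRS2 and FOXO1 lie near 1 with Torin-1.

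IGF2, the growth factor of the group, fell by 2.81 on the log2 scale with sgPIKFYVE-1 and did not pass the threshold with either drug. The gene (ENSG00000167244.20) lies on the reverse strand of GRCh38 at chr11:2129112-2149603 in GENCODE release 29. It had 136 and 130.0 CPM with sgNC and 18.2 and 18.1 CPM with sgPIKFYVE-1. Both knockdown samples were below both controls, and the log2 fold change of -2.81 ± 0.08 was the fifth lowest of the 13591 genes tested. In the drug table IGF2 had 22.6 and 20.8 CPM with DMSO, 21.3 and 16.6 CPM with Apilimod, and 20.5 and 16.5 CPM with Torin-1. The Apilimod samples overlapped the controls while the Torin-1 samples were slightly below them, with log2 fold changes of -0.19 ± 0.14 and -0.23 ± 0.14. In bulk RNA, fewer cells with the transcript and less transcript per cell cannot be told apart.

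The control levels of IGF2 differed between the experiments by nearly as much as the knockdown samples differed from sgNC. The sgNC samples had a mean of 133 ± 4.39 CPM (SD, n = 2). For DMSO the mean was 21.7 ± 1.28 CPM (SD, n = 2), and the ratio of the means was 6.13. The sgPIKFYVE-1 mean of 18.2 CPM lay near the DMSO level. Over the 13235 genes whose mean reached 1 CPM in both tables, the log2 ratio of sgNC to DMSO had a median of 0.01 and quartiles of -0.30 and 0.31, and the value of 2.56 for IGF2 ranked 20 from the highest. Since each table was scaled on its own, and guide transduction, selection and the experiment all differ between these controls, no test was made and these sources cannot be told apart.

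The read-through gene INS-IGF2, which shares sequence with IGF2, was at 0 in all 10 samples, as was the insulin gene INS. IGF1, the other main ligand of IGF1R, had between 0 and 0.597 CPM. By the distance between 6 treated values, each relative to its own control, the genes with the pattern most like IGF2 among 13234 genes were TRIM9 (root mean square distance 0.25 on the log2 scale), TFF1 (0.32) and CHST15 (0.35). With sgPIKFYVE-1 their log2 fold changes were -2.86, -3.19 and -2.70.

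**Figure D2:**
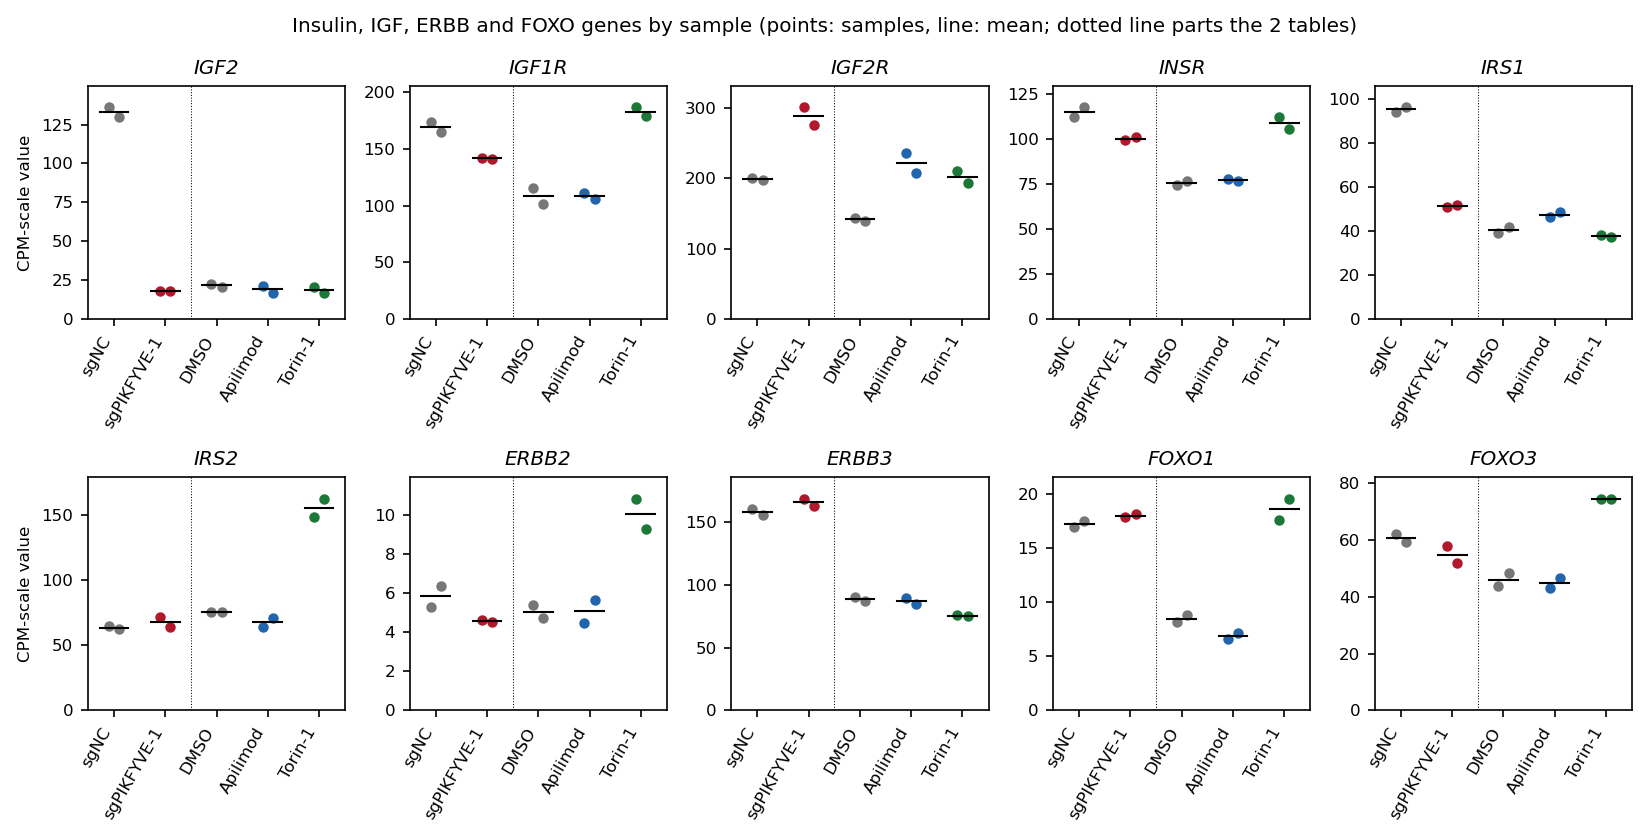
CPM-scale values (vertical, from 0) of the 10 genes, 1 panel each, in the 2 samples (points) of each of the 5 groups (horizontal), with a line at the mean and a dotted line between the separately scaled knockdown and drug tables. The IGF2 panel shows sgNC at 136 and 130.0 CPM against values between 16.5 and 22.6 CPM in the other 8 samples, and the IRS2 and FOXO1 panels show Torin-1 above both other groups of the drug table.

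IGF1R and INSR, the receptor tyrosine kinases for the IGFs and insulin, rose with Torin-1 and were slightly lower with sgPIKFYVE-1. IGF1R (ENSG00000140443.14, chr15:98648539-98964530, forward strand) had 115 and 102 CPM with DMSO and 187 and 179 CPM with Torin-1, a log2 fold change of 0.75 ± 0.07. Both Torin-1 samples were above both controls, whereas Apilimod, at 111 and 106 CPM, lay between them with a log2 fold change of 0.00 ± 0.07. With sgNC IGF1R had 174 and 165 CPM and with sgPIKFYVE-1 142 and 142 CPM, a log2 fold change of -0.25 ± 0.06.

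INSR (ENSG00000171105.14, chr19:7112255-7294034, reverse strand) had 74.6 and 76.8 CPM with DMSO, 77.6 and 76.8 CPM with Apilimod and 112 and 105 CPM with Torin-1. The Torin-1 samples stood apart from the other 4, with a log2 fold change of 0.52 ± 0.07, and Apilimod gave 0.03 ± 0.07. With sgPIKFYVE-1 INSR had 99.3 and 101 CPM, below the 112 and 118 CPM with sgNC, a log2 fold change of -0.19 ± 0.06. This last call was lost without sgNC replicate 2 (-0.16) and without sgPIKFYVE-1 replicate 1 (-0.18). The gene whose pattern was most like that of INSR was CTDSP2, a phosphatase gene that also stands in the FOXO list used below, at a distance of 0.043. CFLAR (0.045) and TRPV1 (0.051), which are not in that list, were nearly as close. For IGF1R the nearest genes were LPP, EEF2, the translation elongation factor, and ZBTB20, at distances of 0.05 to 0.07.

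IGF2R was the only gene of the 10 that rose in all 3 comparisons. It encodes the cation-independent mannose 6-phosphate receptor, which carries hydrolases to the lysosome and clears IGF2 from the cell surface. With sgPIKFYVE-1 the gene (ENSG00000197081.13, chr6:159969099-160113507, forward strand) had 301 and 276 CPM, above 200.0 and 198 CPM with sgNC, a log2 fold change of 0.53 ± 0.05. In the drug table it had 144 and 140 CPM with DMSO, 236 and 208 CPM with Apilimod and 211 and 193 CPM with Torin-1. All 4 drug samples were above both DMSO samples, with log2 fold changes of 0.64 ± 0.07 and 0.51 ± 0.07, and the values of the drug groups overlapped each other. With Apilimod, IGF2R was the single gene of the 10 past the threshold and ranked 308 from the highest of 13520 genes. The genes closest to it in pattern were TMC5, WASHC2A, a subunit of the endosomal WASH complex, and OPTN, an autophagy receptor, at distances of 0.11, 0.12 and 0.13.

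The IGF2R promoter is shown because IGF2R rose in all 3 comparisons and because its promoter holds repeated copies of CACGTG, the E-box core read by MITF and TFE family factors, which control lysosomal genes. The 250 bases before the RefSeq start (GRCh38.p14, chr6:159968832-159969081, forward strand) follow, with CACGTG in capitals.
IGF2R: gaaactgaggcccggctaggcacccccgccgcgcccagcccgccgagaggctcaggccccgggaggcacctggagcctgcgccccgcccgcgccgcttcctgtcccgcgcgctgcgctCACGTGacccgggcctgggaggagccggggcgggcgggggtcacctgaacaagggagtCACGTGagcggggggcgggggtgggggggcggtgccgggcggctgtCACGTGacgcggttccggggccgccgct
CACGTG, which is its own reverse complement, occurred 3 times, at 132 to 127, 74 to 69 and 28 to 23 bases before the start. Of 35116 RefSeq promoter windows of this length, 6.34% held CACGTG at least once and 28 windows (0.0797%) at least 3 times. IGF2R was the only gene with CACGTG among the 8 of 10 genes that had a promoter entry, which IGF2 and ERBB3 did not have. The promoter was picked for these copies, so the share of windows is no test. A match of letters is a description of the sequence and not a site shown to be bound.

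The adapters IRS1 and IRS2 moved separately. IRS1, which couples the receptors to PI3K, fell with sgPIKFYVE-1 and did not pass with either drug. The gene (ENSG00000169047.5, chr2:226731317-226799759, reverse strand) had 94.4 and 96.3 CPM with sgNC and 50.8 and 51.8 CPM with sgPIKFYVE-1. Samples of each group differed by little, and the log2 fold change was -0.88 ± 0.07. IRS1 had 39.2 and 42.0 CPM with DMSO, 46.3 and 48.7 CPM with Apilimod and 38.2 and 37.5 CPM with Torin-1. The Apilimod samples were above and the Torin-1 samples below both controls, with log2 fold changes of 0.22 ± 0.09 and -0.10 ± 0.09. Like IGF2, IRS1 was higher in the sgNC than in the DMSO control, with a ratio of 2.35.

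IRS2, the second adapter and a known FOXO target, rose with Torin-1. It (ENSG00000185950.9, chr13:109752698-109786568, reverse strand) had 75.7 and 75.8 CPM with DMSO and 148 and 162 CPM with Torin-1. Both treated samples were far above both controls, a log2 fold change of 1.02 ± 0.07, rank 121 from the highest of 13520 genes. Apilimod gave 64.2 and 71.2 CPM, below both DMSO samples, with a log2 fold change of -0.16 ± 0.07 that did not pass. With sgNC it had 64.5 and 62.2 CPM and with sgPIKFYVE-1 71.3 and 63.7 CPM, overlapping groups with a log2 fold change of 0.09 ± 0.08.

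ERBB2 and ERBB3, which form a signalling pair in which ERBB3 binds neuregulins and recruits PI3K, had fold changes of opposite sign with Torin-1. ERBB2 (ENSG00000141736.13, chr17:39687914-39730426, forward strand) was low throughout. It had 5.37 and 4.73 CPM with DMSO, 4.48 and 5.63 CPM with Apilimod and 10.8 and 9.25 CPM with Torin-1. The Torin-1 samples were well above the other 4, which overlapped, with log2 fold changes of 0.87 ± 0.18 for Torin-1 and -0.00 ± 0.18 for Apilimod. With sgNC ERBB2 had 5.29 and 6.38 CPM, and with sgPIKFYVE-1 4.61 and 4.53 CPM. Groups did not overlap, but the log2 fold change of -0.29 ± 0.21 did not pass, and it was -0.15 under quantile normalization.

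ERBB3 (ENSG00000065361.15, chr12:56076799-56103505, forward strand), also a known FOXO target, had 90.9 and 87.2 CPM with DMSO, 89.4 and 85.0 CPM with Apilimod and 76.3 and 75.0 CPM with Torin-1. It was the single gene of the 10 that passed the threshold as lower with Torin-1, with a log2 fold change of -0.23 ± 0.07, close to the -0.23 ± 0.14 of IGF2, which did not pass, while Apilimod gave -0.03 ± 0.07 for ERBB3. The Torin-1 call was lost without DMSO replicate 1 (-0.20), without DMSO replicate 2 (-0.26), without Torin-1 replicate 2 (-0.22), under quantile normalization (-0.17) and without a variance trend (-0.23). With sgNC ERBB3 had 161 and 156 CPM and with sgPIKFYVE-1 169 and 163 CPM, a log2 fold change of 0.07 ± 0.05 that did not pass.

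FOXO1 and FOXO3, the transcription factors that AKT restrains, both rose with Torin-1 and did not pass in the other comparisons. FOXO1 (ENSG00000150907.8, chr13:40469953-40666597, reverse strand) had 8.15 and 8.79 CPM with DMSO and 17.6 and 19.6 CPM with Torin-1. Its log2 fold change of 1.05 ± 0.14, close to that of IRS2, ranked 108 from the highest. With Apilimod FOXO1 had 6.60 and 7.18 CPM, below both DMSO samples, a log2 fold change of -0.26 ± 0.14. In the knockdown table it had 17.0 and 17.6 CPM with sgNC and 17.9 and 18.1 CPM with sgPIKFYVE-1, a log2 fold change of 0.06 ± 0.13. The Torin-1 level of FOXO1 lay close to the values of both knockdown groups, whose table was scaled separately.

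FOXO3 (ENSG00000118689.15, chr6:108559835-108684774, forward strand) had 43.6 and 48.5 CPM with DMSO, 43.0 and 46.5 CPM with Apilimod and 74.5 and 74.5 CPM with Torin-1. The Torin-1 samples stood above the other 4, with a log2 fold change of 0.68 ± 0.08, and Apilimod gave -0.04 ± 0.08. With sgNC FOXO3 had 62.0 and 59.4 CPM and with sgPIKFYVE-1 57.9 and 51.7 CPM, a log2 fold change of -0.15 ± 0.08. FOXO3B is a near-identical copy of FOXO3 between which reads may be divided. It had between 0.250 and 2.08 CPM, and the log2 ratio for both genes summed was -0.17 with sgPIKFYVE-1, -0.04 with Apilimod and 0.68 with Torin-1.

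IRS2 and FOXO1 were each other's nearest gene by pattern over the 6 treated samples, at a distance of 0.082. FOXO1 was nearly as close to HSPBAP1 (0.083) and AL121722.1 (0.090), and the next genes for IRS2 were ZNF836 and TPH1 (both 0.10). IRS2 and FOXO1 had both been selected on these same fold changes, so their likeness is no test. Their promoters are shown because of that likeness, with TGTTT, the core of the FOXO motif, or its reverse complement AAACA in capitals. The 250 bases before the RefSeq start lie at chr13:109786584-109786833 (IRS2) and chr13:40666642-40666891 (FOXO1) of GRCh38.p14, both on the reverse strand and printed in the direction of transcription.
IRS2: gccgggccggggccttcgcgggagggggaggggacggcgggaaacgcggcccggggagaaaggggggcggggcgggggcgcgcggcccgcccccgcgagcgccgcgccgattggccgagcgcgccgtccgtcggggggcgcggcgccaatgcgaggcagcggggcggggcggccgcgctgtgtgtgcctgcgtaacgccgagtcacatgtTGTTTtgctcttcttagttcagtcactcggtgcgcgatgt
FOXO1: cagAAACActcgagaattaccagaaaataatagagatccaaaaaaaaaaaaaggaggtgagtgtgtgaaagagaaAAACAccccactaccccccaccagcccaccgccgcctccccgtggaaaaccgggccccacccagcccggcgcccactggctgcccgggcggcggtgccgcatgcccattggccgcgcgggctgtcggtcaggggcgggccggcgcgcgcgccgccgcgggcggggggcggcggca
IRS2 held 1 match, 40 to 36 bases before the start, and FOXO1 held 2 on the opposite strand, at 247 to 243 and 175 to 171 bases before it. TGTTT or AAACA was in 40.4% of all windows, and among the 8 genes with an entry in FOXO1, FOXO3, IRS1 and IRS2. The full motif GTAAACA (reverse complement TGTTTAC), which contains AAACA, was in 2.98% of windows and in none of these 8 genes.

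Further genes of the same routes were taken as 5 lists from textbook knowledge, but with earlier results of these data known. The adjusted p-values given for list genes carry that limit. None of the lists holds any of the 10 genes, and 117 of their 118 symbols were in the tables. The remaining symbol, G6PC1, is the newer name of G6PC. Of the list genes tested, 46 of 100 passed with sgPIKFYVE-1 (23 higher, 23 lower), 17 of 98 with Apilimod (11 higher, 6 lower) and 47 of 98 with Torin-1 (26 higher, 21 lower). These are 46%, 17.3% and 48%, beside 42.5%, 8.54% and 38.5% of all genes. Of the Apilimod calls over all genes, 67.4% were higher, and 55.1% were under quantile normalization.

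**Figure D3:**
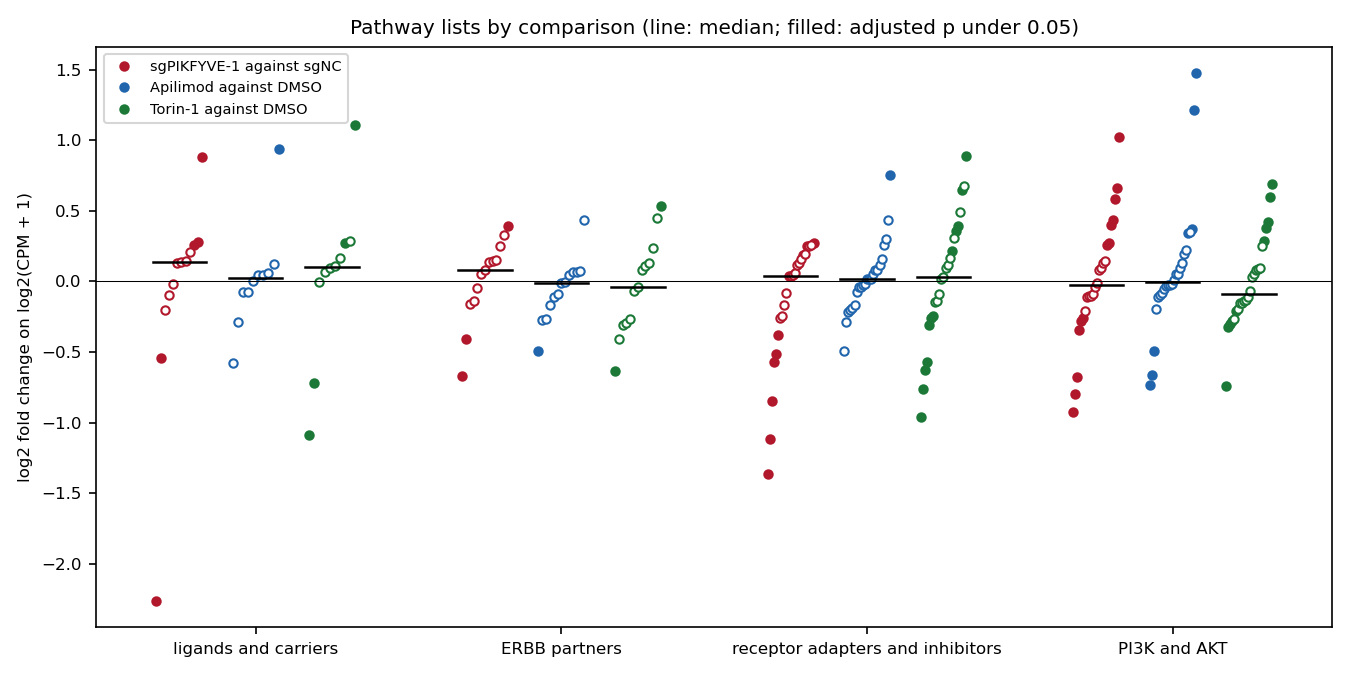
Log2 fold change on the log2(CPM + 1) scale (vertical) of each tested gene (points, ordered by value) of 4 lists (horizontal) in the 3 comparisons, with a line at the median and filled points for genes past the threshold. The medians lie between -0.09 and 0.13, the lowest point is PAPPA2 at -2.26 with sgPIKFYVE-1 and the highest is TRIB3 at 1.47 with Apilimod.

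The list of 28 tested FOXO family and target genes had the highest share of calls with Torin-1. There 13 rose and 6 fell (67.9%), with a median log2 fold change of 0.25, beside 38.5% and -0.01 over all genes. FBXO32, a muscle atrophy ubiquitin ligase gene, had 9.63 and 8.21 CPM with DMSO and 42.0 and 39.6 CPM with Torin-1. Both treated samples were far above the controls, and its log2 fold change of 2.08 ± 0.14 (limma adjusted p = 8.66e-08) ranked 7 from the highest. PDK4, which restrains pyruvate dehydrogenase, rose from 190.2 and 192 CPM to 398 and 436 CPM, a log2 fold change of 1.12 ± 0.05 (limma adjusted p = 3.64e-09). The list did not move one way, and it does not separate genes that FOXO factors activate from genes they repress. SESN3, a sestrin that restrains mTORC1, fell from 33.3 and 30.5 CPM to 13.9 and 16.2 CPM, a log2 fold change of -1.04 ± 0.11 (limma adjusted p = 7.33e-06). PRDX3, a mitochondrial peroxiredoxin, fell from 135 and 140 CPM to 80.5 and 96.5 CPM (-0.64 ± 0.09, limma adjusted p = 5.92e-05). The number that fell was 3 in place of 6 without DMSO replicate 2.

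With sgPIKFYVE-1, 9 of these 28 genes rose and 7 fell (57.1%), beside 42.5% of all genes, with a median log2 fold change of 0.07. PDK4 rose from 113 and 133 CPM to 210 and 228 CPM (0.83 ± 0.07, limma adjusted p = 9.05e-09), and PRDX3 from 77.9 and 78.8 CPM to 123 and 125 CPM (0.66 ± 0.06, limma adjusted p = 6.45e-08). TXNIP, an inhibitor of thioredoxin that also responds to glucose, fell from 1802 and 1815 CPM to 517 and 567 CPM, a log2 fold change of -1.74 ± 0.04 (limma adjusted p = 2.78e-16). FOXO6 also passed (-1.17 ± 0.41, limma adjusted p = 0.0267), with -2.69 at a pseudocount of 0.1. Its values were 3.79 and 2.56 CPM with sgNC and 2.39 and 0 CPM with sgPIKFYVE-1, and the call was lost without sgNC replicate 1 (-0.95) and without sgPIKFYVE-1 replicate 2 (-0.29).

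With Apilimod, 5 of the 28 rose and 2 fell (25%), beside 8.54% of all genes, with a median of 0.02. CCNG2, a cyclin that goes with cell cycle exit, rose from 42.6 and 41.1 CPM to 63.5 and 63.5 CPM (0.59 ± 0.07, limma adjusted p = 9.72e-05). TXNIP fell from 675 and 678 CPM to 317 and 321 CPM (-1.08 ± 0.04, limma adjusted p = 1.71e-10). PINK1, a kinase of mitochondrial quality control, had 24.1 and 25.9 CPM with DMSO and 34.1 and 34.1 CPM with Apilimod (0.43 ± 0.10, limma adjusted p = 0.0183). FOXO6 was under 3 reads in both Apilimod samples and had 0.963 CPM in the lower DMSO sample, so it was at least 3.31-fold lower than the lower control, with the floor of 0.291 CPM taken per library. The number that rose was 2 without DMSO replicate 1, without DMSO replicate 2 or without Apilimod replicate 1, and 3 without Apilimod replicate 2. The number that fell was 1 when DMSO replicate 2, either Apilimod sample or either Torin-1 sample was left out, and in a fit to DMSO and Apilimod alone. The PINK1 call was lost when any of the DMSO or Apilimod samples was left out (0.38 to 0.48), and that of FOXO6 without either Apilimod sample. FOXO6 passed the filter on low values through DMSO and Torin-1 (means 1.48 and 1.84 CPM). It was not tested when DMSO replicate 2 or either Torin-1 sample was left out, or in a fit to DMSO and Apilimod alone.

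**Figure D4:**
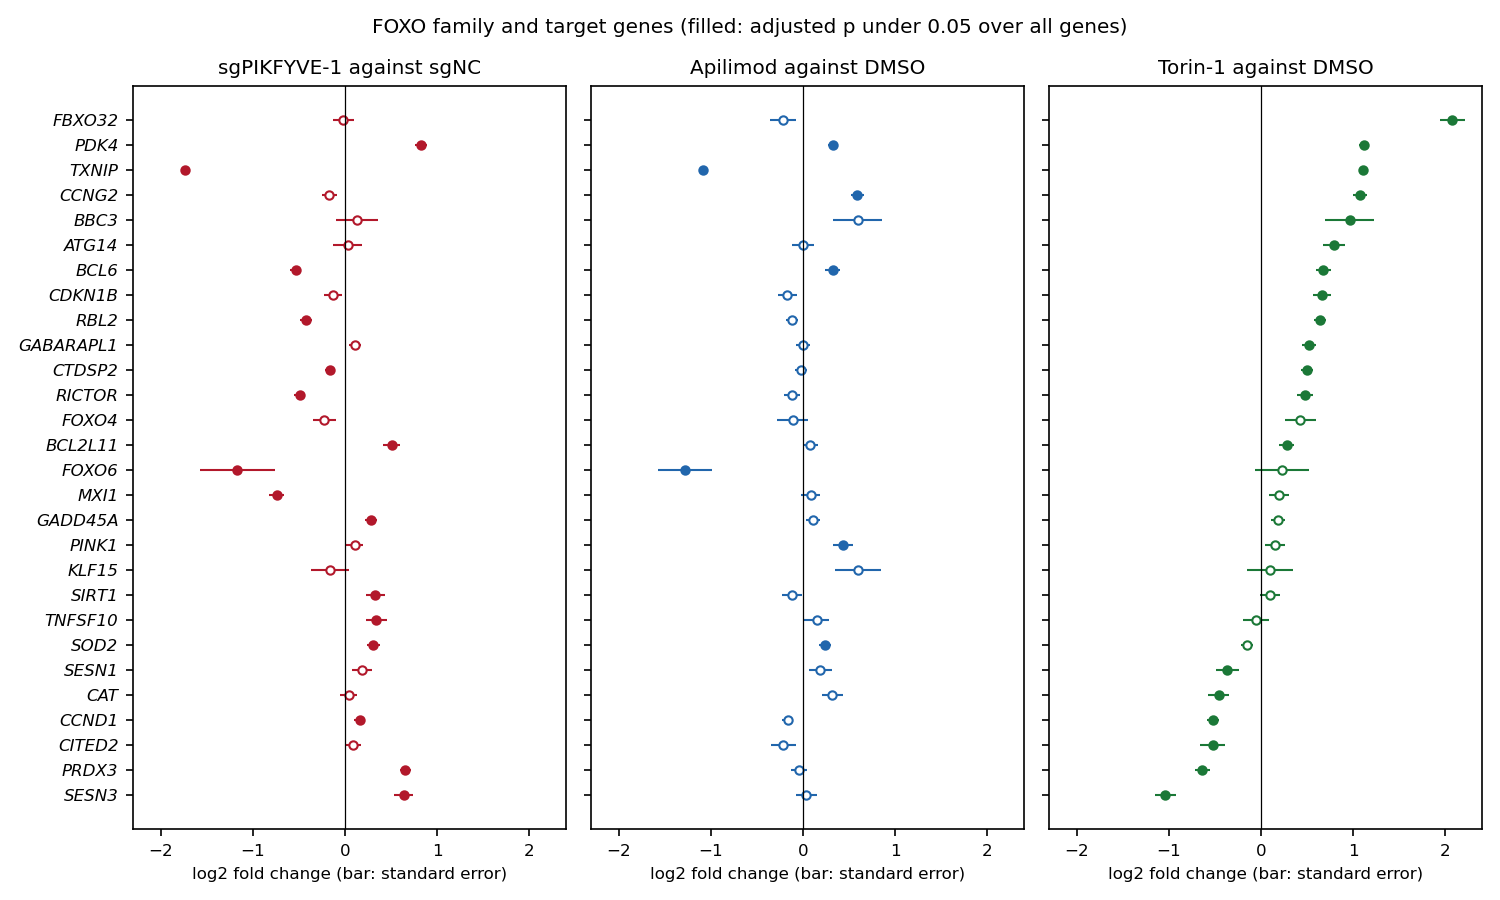
Log2 fold change on the log2(CPM + 1) scale (horizontal) of the 28 FOXO family and target genes (rows, in the order of their Torin-1 values) in the 3 comparisons (panels), with bars of 1 SE and filled points for genes past the threshold. FBXO32 stands at 2.08 with Torin-1, and TXNIP lies at -1.74 with sgPIKFYVE-1 and at -1.08 with Apilimod, but at 1.11 with Torin-1.

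Among receptor adapters and inhibitors, 9 of 23 passed with sgPIKFYVE-1 (3 higher, 6 lower), 1 with Apilimod and 12 with Torin-1 (5 higher, 7 lower). These are 39.1%, 4.35% and 52.2%, beside 42.5%, 8.54% and 38.5% of all genes. GRB10, an adapter that inhibits INSR and IGF1R, had 93.1 and 89.8 CPM with sgNC and fell to 36.2 and 33.8 CPM with sgPIKFYVE-1, a log2 fold change of -1.36 ± 0.08 (limma adjusted p = 5.13e-11). In the separately scaled DMSO samples GRB10 had 16.0 and 17.5 CPM. GRB7, a related adapter that binds ERBB2, fell with sgPIKFYVE-1 from 48.7 and 49.9 CPM to 24.3 and 20.2 CPM (-1.12 ± 0.10, limma adjusted p = 5.44e-08). It rose with Torin-1 from 14.8 and 17.3 CPM to 33.0 and 28.1 CPM (0.89 ± 0.12, limma adjusted p = 8.58e-05). GAB2, a docking protein upstream of PI3K, rose with Torin-1 from 98.3 and 98.3 CPM to 151 and 157 CPM (0.64 ± 0.07, limma adjusted p = 5.08e-06). SOCS3, which inhibits cytokine and insulin receptor signalling, was 16.5 and 13.6 CPM with DMSO. It rose to 26.0 and 25.9 CPM with Apilimod (0.75 ± 0.13, limma adjusted p = 0.00227) and fell to 7.92 and 8.97 CPM with Torin-1 (-0.76 ± 0.13, limma adjusted p = 0.000551). SOCS1 had 1.27 and 1.82 CPM with DMSO and 0.186 and 0.431 CPM with Torin-1, the lower of these under the 0.279 CPM of 3 reads in that library. It passed as lower (-0.96 ± 0.28, limma adjusted p = 0.0142), but the size of the difference depends on the pseudocount, with -2.06 at a pseudocount of 0.1, and the call was lost without DMSO replicate 2 (-0.80) or without Torin-1 replicate 1 (-0.82). SOCS1 passed the filter on low values through DMSO and Apilimod (means 1.55 and 2.04 CPM), not Torin-1 (0.309 CPM). It was not tested in a fit to DMSO and Torin-1 alone. With sgPIKFYVE-1, GRB2 and the phosphatase PTPN2 rose by 0.27 ± 0.06 and 0.25 ± 0.09 on the log2 scale. The PTPN2 call was lost without sgNC replicate 2 (0.13), without sgPIKFYVE-1 replicate 1 (0.27) and without sgPIKFYVE-1 replicate 2 (0.23).

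In the PI3K and AKT list, 13 of 24 passed with sgPIKFYVE-1 (7 higher, 6 lower), 7 with Apilimod (4 higher, 3 lower) and 10 with Torin-1 (5 higher, 5 lower). These are 54.2%, 29.2% and 41.7%, beside 42.5%, 8.54% and 38.5% of all genes. PIK3R3, a regulatory subunit of PI3K, rose from 42.0 and 44.1 CPM to 85.8 and 90.8 CPM with sgPIKFYVE-1 (1.02 ± 0.07, limma adjusted p = 1.98e-09). It fell from 80.1 and 84.8 CPM to 46.4 and 51.2 CPM with Torin-1 (-0.74 ± 0.07, limma adjusted p = 4.14e-06). With Apilimod PIK3R3 rose (0.34 ± 0.07, limma adjusted p = 0.00898). TRIB3, a pseudokinase that binds AKT and is induced by ATF4, rose with Apilimod from 21.2 and 18.99 CPM to 55.3 and 59.8 CPM (1.47 ± 0.11, limma adjusted p = 5.51e-07). TRIB3 also rose with sgPIKFYVE-1 (0.40 ± 0.10, limma adjusted p = 0.00299). Its relative TRIB2 fell with sgPIKFYVE-1 (-0.92 ± 0.07, limma adjusted p = 1.94e-09) and with Apilimod (-0.49 ± 0.09, limma adjusted p = 0.00286). PIK3IP1, an inhibitor of PI3K, had 3.62 and 4.40 CPM with DMSO and rose to 10.7 and 10.5 CPM with Apilimod and to 7.62 and 6.55 CPM with Torin-1. The log2 fold changes were 1.21 ± 0.17 (limma adjusted p = 0.000301) and 0.69 ± 0.17 (limma adjusted p = 0.00549), the second of which was lost without DMSO replicate 1 (0.58). PIK3IP1 also rose with sgPIKFYVE-1 (0.43 ± 0.13, limma adjusted p = 0.0128). SGK1, a kinase related to AKT, rose with sgPIKFYVE-1 (0.67 ± 0.19, limma adjusted p = 0.00762) and fell with Apilimod (-0.73 ± 0.12, limma adjusted p = 0.000977). The knockdown call of SGK1 was lost without sgNC replicate 2 (0.54) or without sgPIKFYVE-1 replicate 1 (0.48). PIK3CD with sgPIKFYVE-1 (-0.80 ± 0.25) lost its call without sgNC replicate 1 (-0.78) or sgPIKFYVE-1 replicate 1 (-0.59), and INPP4B with Apilimod (-0.66 ± 0.16) without DMSO replicate 1 (-0.60), DMSO replicate 2 (-0.72) or Apilimod replicate 1 (-0.50). INPP5K rose (0.60 ± 0.10) and PIK3R2 fell (-0.33 ± 0.07) with Torin-1.

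Among ligands and carriers, 5 of 12 passed with sgPIKFYVE-1 (3 higher, 2 lower), 1 of 10 with Apilimod and 4 of 10 with Torin-1 (2 higher, 2 lower). These are 41.7%, 10% and 40%, beside 42.5%, 8.54% and 38.5% of all genes. IGFBP2, a secreted IGF-binding protein, had 54.3 and 54.6 CPM with sgNC and rose to 111 and 92.1 CPM with sgPIKFYVE-1 (0.88 ± 0.08, limma adjusted p = 4.70e-08). PAPPA2, a protease that cleaves IGF-binding proteins, fell from 6.77 and 6.99 CPM to 0.877 and 0.431 CPM with sgPIKFYVE-1 (-2.26 ± 0.26, limma adjusted p = 9.62e-07). It rose from 1.45 and 1.99 CPM to 5.12 and 4.57 CPM with Torin-1 (1.11 ± 0.24, limma adjusted p = 0.00210). STC2, a secreted inhibitor of such proteases, had 24.1 and 27.6 CPM with DMSO, rose to 52.2 and 48.3 CPM with Apilimod (0.93 ± 0.11, limma adjusted p = 5.66e-05) and fell to 12.0 and 11.2 CPM with Torin-1 (-1.09 ± 0.11, limma adjusted p = 4.52e-06). IGF2BP2, which binds IGF2 and other mRNAs, fell with sgPIKFYVE-1 (-0.54 ± 0.08, limma adjusted p = 1.35e-05). STC2 also rose with sgPIKFYVE-1 (0.28 ± 0.09), a call lost without sgNC replicate 2 (0.25) or sgPIKFYVE-1 replicate 2 (0.22). With Torin-1 IGFBPL1 fell (-0.72 ± 0.11), and FURIN, a protease that processes IGF precursors and receptors, rose (0.28 ± 0.09), a call lost without DMSO replicate 2 (0.18) or Torin-1 replicate 1 (0.22).

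Of 13 ERBB partners tested, 3 passed with sgPIKFYVE-1 (1 higher, 2 lower), 1 with Apilimod (lower) and 2 with Torin-1 (1 higher, 1 lower). These are 23.1%, 7.69% and 15.4%, beside 42.5%, 8.54% and 38.5% of all genes. EGFR, which pairs with ERBB2 and ERBB3, fell from 125 and 126 CPM to 96.1 and 92.9 CPM with sgPIKFYVE-1 (-0.40 ± 0.06, limma adjusted p = 2.15e-05). It rose from 69.2 and 66.6 CPM to 97.0 and 101 CPM with Torin-1 (0.53 ± 0.07, limma adjusted p = 4.41e-05). LRIG1, an inhibitor of ERBB receptors, rose with sgPIKFYVE-1 (0.39 ± 0.08, limma adjusted p = 0.000896). ERRFI1, another such inhibitor, fell with sgPIKFYVE-1 (-0.67 ± 0.10, limma adjusted p = 2.00e-05). It was lower with Apilimod (-0.49 ± 0.13, limma adjusted p = 0.0351), a call lost when any of the DMSO or Apilimod samples was left out (-0.44 to -0.55). The EGFR ligand HBEGF, at 2.99 and 2.57 CPM with DMSO and 1.58 and 1.29 CPM with Torin-1 (-0.63 ± 0.22, limma adjusted p = 0.0378), lost its call when any of these 4 samples was left out (-0.55 to -0.72).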

How the data were processed

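Total RNA of QGP-1 cells was sequenced in 10 samples. Per the labels, ribosomal RNA was depleted, whereas the methods describe oligo(dT) selection. The authors trimmed reads with Trimmomatic, quantified transcripts on hg38, summed them to genes and scaled them with edgeR's TMM method. The quantifier is not given in the sources used here. What was deposited is a normalized signal per gene on the scale of CPM, with sums per sample between 972493 and 1024332. Of values under 50 reads, 62.4% to 66.4% were whole within 0.01 reads, so counts were not recovered and no count model was fitted. The design assumed CPM-scale values and was kept.

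Limma 3.58.1 (lmFit and eBayes with trend, R 4.3.3) was fitted to log2(CPM + 1) for every gene whose table mean reached 1 CPM, to the 4 knockdown samples and to the 6 drug samples, and p-values were adjusted by Benjamini-Hochberg over all genes tested. The pseudocount of 1 shrinks fold changes of low genes. Nothing says that replicates came from separate cultures, so p-values measure only the spread between samples, which may be technical. Replicates differed by more than sampling noise, with a median chi-square of 1.87 to 2.63 relative to Poisson counts. The procedure was tested on simulated data.

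The 10 genes and the lists were chosen with earlier results of these data known. Further genes named are PIKFYVE, neighbours in sequence or locus, and genes of the lists. Per list and comparison these are up to 2 with the highest and up to 2 with the lowest log2 fold change among those past the threshold without overlap. The genes nearest in pattern were found for each of the 10 and are named for IGF2, IGF1R, IGF2R, INSR, IRS2 and FOXO1. IGF2-AS, H19 and AIRN had no entry under these symbols, so they were not analysed here. INS and IGF1 were named after their values were seen. Promoters are from RefSeq (GRCh38.p14) and gene positions from GENCODE release 29. Alternatives were a pseudocount of 0.1, no filter, no variance trend, quantile normalization, fits to the compared groups alone, a replicate block and each sample left out. Alternatives for the FOXO list, the pathway genes and the IGF2 controls were added after seeing the data. Figures were drawn with matplotlib 3.10.9.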

Additional observations from a re-analysis of the deposited data

How the results depend on the processing

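Of 330 recomputed fold changes of the 10 genes, 313 kept their direction and their side of the threshold. Several alternatives leave the fold change itself as it is, so there only the side of the threshold could change. These are no filter, no variance trend, a replicate block, the compared groups alone, and leaving out a sample of the other drug. Without a variance trend, 3709 in place of 5772 genes were called with sgPIKFYVE-1, and 3 in place of 5 of the 10 genes, IGF1R and INSR being lost. The calls of STC2, GRB2, PTPN2 and FOXO6 with sgPIKFYVE-1, ERRFI1, INPP4B and PINK1 with Apilimod, and ERBB3 and FURIN with Torin-1 were also lost without the trend. Without the filter on low values, the calls of PTPN2, SGK1, PIK3CD and FOXO6 with sgPIKFYVE-1, ERRFI1, INPP4B and PINK1 with Apilimod, and FURIN and HBEGF with Torin-1 were lost. Quantile normalization lost PTPN2 and FOXO6 with sgPIKFYVE-1 and ERBB3 with Torin-1, and a fit to the compared groups alone lost HBEGF. In that last fit FOXO6 with Apilimod and SOCS1 with Torin-1 did not reach the filter on low values and were not tested. The Apilimod counts moved most. Over all genes, 1155 were called, against 466 without a variance trend, 565 without the filter on low values and 596 to 1315 with each sample left out. Over the lists, 17 were called, against 9, 11 and 10 to 16. The cause was not tested. The counts fell below the reported ones by over 1.5 times without DMSO replicate 1 (656 and 11), DMSO replicate 2 (596 and 11) or Apilimod replicate 1 (688 and 10). The reported fits did not pair samples by replicate number. Same-numbered deviations correlated by 0.04 to 0.10 over the genes tested, which does not settle whether these numbers pair the samples. With a replicate block, 1756 genes were called with Apilimod, PIKFYVE (0.22) passed with Apilimod, and the calls of the 10 genes were as reported. PIKFYVE passed with Torin-1 under quantile normalization (0.19). Quantile normalization of the 10 samples together gave 2.61 for the log2 ratio of IGF2 between sgNC and DMSO, and leaving out each control sample gave 2.50 to 2.62. Depth limits values under 3 reads, such as those of FOXO6 with Apilimod.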

Other observations

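Of the 10 genes, 9 were higher with sgNC than with DMSO, and IRS2 was lower (ratio 0.836). After IGF2 and IRS1 the ratios were 2.04 for FOXO1, 1.78 for ERBB3, 1.56 for IGF1R, 1.52 for INSR, 1.40 for IGF2R, 1.32 for FOXO3 and 1.15 for ERBB2. The median log2 ratio of the 10 genes was 0.61. Of the 28 FOXO family and target genes, 19 were higher with sgNC, with a median log2 ratio of 0.58, beside 0.01 over all 13235 genes. The tables were scaled separately and the controls differ in transduction and experiment, so these levels are values side by side with no test.

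TXNIP lay at 675 and 678 CPM with DMSO, 317 and 321 CPM with Apilimod and 1435 and 1494 CPM with Torin-1. The Torin-1 samples reached a log2 fold change of 1.11 ± 0.04 (limma adjusted p = 2.05e-10), opposite in sign to that of Apilimod against the same DMSO samples.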
